A study of Mus musculus with 3 samples.

Results

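Siglecs are cell-surface lectins that bind sialic acid on glycans, and the 6 members described here are the mouse genes Siglech, Siglec1, Cd33, Siglece, Siglecg and Siglecf, taken by gene symbol from a table of 31062 genes. Antibodies to 2 of their proteins, Siglec-H and Siglec-1 (CD169), were among the 35 antibodies whose oligonucleotide tags were counted in the same cells. Many Siglecs carry tyrosine motifs in their cytoplasmic tails that recruit phosphatases and dampen activating signals, whereas Siglec-H has no such motif and pairs with the adaptor DAP12, the product of Tyrobp. In the mouse, Siglec-H is known from plasmacytoid dendritic cells and microglia, and Siglec-1 from tissue macrophages, where interferon induces it. Siglec-F is known from eosinophils and alveolar macrophages, Siglec-G from B cells, and Cd33 and Siglec-E from myeloid cells including neutrophils.

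The cells came from the brains of 2 to 3 month old female C57Bl/6 mice in which E0771 cells, a mammary carcinoma line of the mouse, had been seeded as metastases through the carotid artery. Some of the mice received antibodies against VISTA and PD-L1, 2 immune checkpoint proteins, every other day beginning 3 days after the tumour cells, and the others did not. Each of 8 brain samples was enriched for immune cells on a Percoll gradient, stained with the antibodies, given its own hashtag and pooled into 1 capture, from which 1 transcript, 1 antibody tag and 1 hashtag library were made over the same 12908 barcodes. The treatment behind each hashtag is unknown here. Treated and untreated brains were therefore not compared, and all comparisons are between cell classes within hashtag samples. The sources do not say that each hashtag was a separate mouse, and the p-values reflect only how much the hashtag samples varied.

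Siglecf, Siglecg, Cd33 and Siglece lie within 321 kb of each other on mouse chromosome 7 in the build GRCm38.p6, at chr7:43351341-43359475, chr7:43408192-43418349, chr7:43527399-43537424 and chr7:43648882-43672044. Siglech lies on the same chromosome at chr7:55768154-55779448, 12.1 Mb further along, and Siglec1 is on chromosome 2 at chr2:131067801-131086778. The 2 antibodies were counted through 15-base barcodes, printed in capitals, which differ from each other at 11 positions.
Siglec-H antibody: CCGCACCTACATTAG
CD169 antibody: ATTGACGACAGTCAT

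For 3 genes the 250 bases before the start listed in the RefSeq promoter table of GRCm38.p6 are shown. They were chosen because Siglecf and Siglech varied together across class sums of at least 20 cells. Cd33, a neighbour of Siglecf, had a broader myeloid pattern. Those sums included no plasmacytoid dendritic cells, where Siglech was abundant and no Siglecf transcript was counted. Of the 6 members, 5 matched this table, and Siglec1 is named only. Capitals mark a run of 16 bases that Siglecf and Cd33 share. In Siglecf it begins 27 bases before the start and in Cd33 157 bases before it, and 2 of 32851 promoters in the table hold it. The Siglecf sequence is chr7:43351091-43351340 on the plus strand, that of Cd33 chr7:43533172-43533421 on the minus strand, and that of Siglech chr7:55767934-55768183 on the plus strand. The listed starts of Cd33, Siglece, Siglecg and Siglech lie inside the gene bounds given above and not at their outer end. The windows of Cd33 and Siglece are therefore within the gene.
Siglecf: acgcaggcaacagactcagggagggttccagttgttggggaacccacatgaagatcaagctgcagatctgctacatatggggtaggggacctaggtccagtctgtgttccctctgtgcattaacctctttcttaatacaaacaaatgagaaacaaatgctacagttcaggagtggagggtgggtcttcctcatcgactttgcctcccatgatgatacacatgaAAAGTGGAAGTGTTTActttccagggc
Cd33: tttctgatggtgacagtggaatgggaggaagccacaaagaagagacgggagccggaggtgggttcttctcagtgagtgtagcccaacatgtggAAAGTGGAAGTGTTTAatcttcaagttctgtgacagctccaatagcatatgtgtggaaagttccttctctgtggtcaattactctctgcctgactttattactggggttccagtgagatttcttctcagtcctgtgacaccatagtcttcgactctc
Siglech: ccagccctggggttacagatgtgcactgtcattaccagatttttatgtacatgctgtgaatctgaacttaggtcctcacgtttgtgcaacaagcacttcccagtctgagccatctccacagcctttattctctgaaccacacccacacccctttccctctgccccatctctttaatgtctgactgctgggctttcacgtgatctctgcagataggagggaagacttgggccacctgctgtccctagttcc
The same promoters were searched on both strands for GAGGAAG, a sequence bound by the myeloid factor PU.1, which 10.6% of all promoters in the table hold. It was present in the windows of Siglecf, Cd33 and Siglece, with 2 copies in Siglece, and in 1 of the 2 windows listed for Siglecg. It was not among the letters of the Siglech window. GGAA followed after 2 bases by GAAA, a composite element for PU.1 and interferon regulatory factors (2.3% of promoters), and GAAA followed after 2 bases by GAAA, as in interferon-response elements (2.98%), had no match in the 6 windows.

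After a filter on genes detected (500 or more) and on mitochondrial UMIs (15% or less; UMIs are unique transcript molecules), 12334 barcodes were left, of which 9896 carried 1 hashtag, with 100 to 2316 per sample and sample totals of 4898693 to 125193153 UMIs. Marker transcripts other than the members placed 8373 of them in 1 of 15 classes, and 855 passed no gate. The other 668 passed several gates, or passed 1 gate and were barred from its class by markers of another. The classes used most were 365 microglia (gated on P2ry12, Tmem119, Sall1, Fcrls, Gpr34 and P2ry13), 286 macrophages (Ms4a7), 707 monocytes (Chil3, Thbs1, Ly6c2, Hp, F10, Clec4e and Vcan) and 34 plasmacytoid dendritic cells. All 10 listed markers of microglia, of macrophages and of monocytes were detected in at least 10% of the cells of their own class, and 10 of 12 for plasmacytoid dendritic cells. The lists include the gate markers, so this detection was partly set by the gates. In macrophages, 9 of 10 monocyte and 7 of 10 microglia markers also reached 10% of cells. In microglia, 6 macrophage markers and 1 monocyte marker did, and in monocytes 7 macrophage and 3 microglia markers. A class of 4527 cells with Krt8 and little Ptprc had 1 of 6 carcinoma markers in 10% of cells and is named by its gate. Macrophages and monocytes were required to have at most 2 UMIs of the microglia markers per 10000, and Ms4a7+ cells with microglia markers or with monocyte markers formed classes of their own. Microglia held fewer antibody tags than the other myeloid classes, with a median of 675 per cell against 3750.5 in macrophages and 2818 in monocytes, while their median UMIs were 7710, 12195.5 and 9275 in the same order. Transcript levels are given as CPM, UMI counts scaled to one common total in every sum, and levels of different genes were not ranked against each other.

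Siglech transcripts were abundant in plasmacytoid dendritic cells and microglia and scarce in the other classes. Plasmacytoid dendritic cells held 450 Siglech UMIs in 34 cells, or 1807 CPM (exact 95% Poisson interval 1644 to 1982), and all of these cells had at least 1 UMI. Microglia held 3026 UMIs in 365 cells, or 834 CPM (805 to 864), and 364 of the cells had at least 1. Intervals of this kind cover counting error only. Ms4a7+ cells with microglia markers had 265 CPM and conventional dendritic cells 51.9 CPM, and each other class had at most 10.9 CPM, from at most 133 UMIs. In conventional dendritic cells 1 cell held 47.5% of the 40 UMIs, and without sample 5 the level was 29.4 CPM. The share of cells with a Siglech UMI was 99.7% in microglia, against 0.535% in T cells (median 5245.5 UMIs). After thinning to 4000 UMIs per cell it was 89.8% in microglia and 0.60% in T cells, with 11 and 263 shallower cells left out. Of all 4723 Siglech UMIs in singlets, 64.1% were in microglia and 9.53% in plasmacytoid dendritic cells. A further 11.8% were in cells that passed several gates or were barred from a class by other markers.

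**Figure D1:**
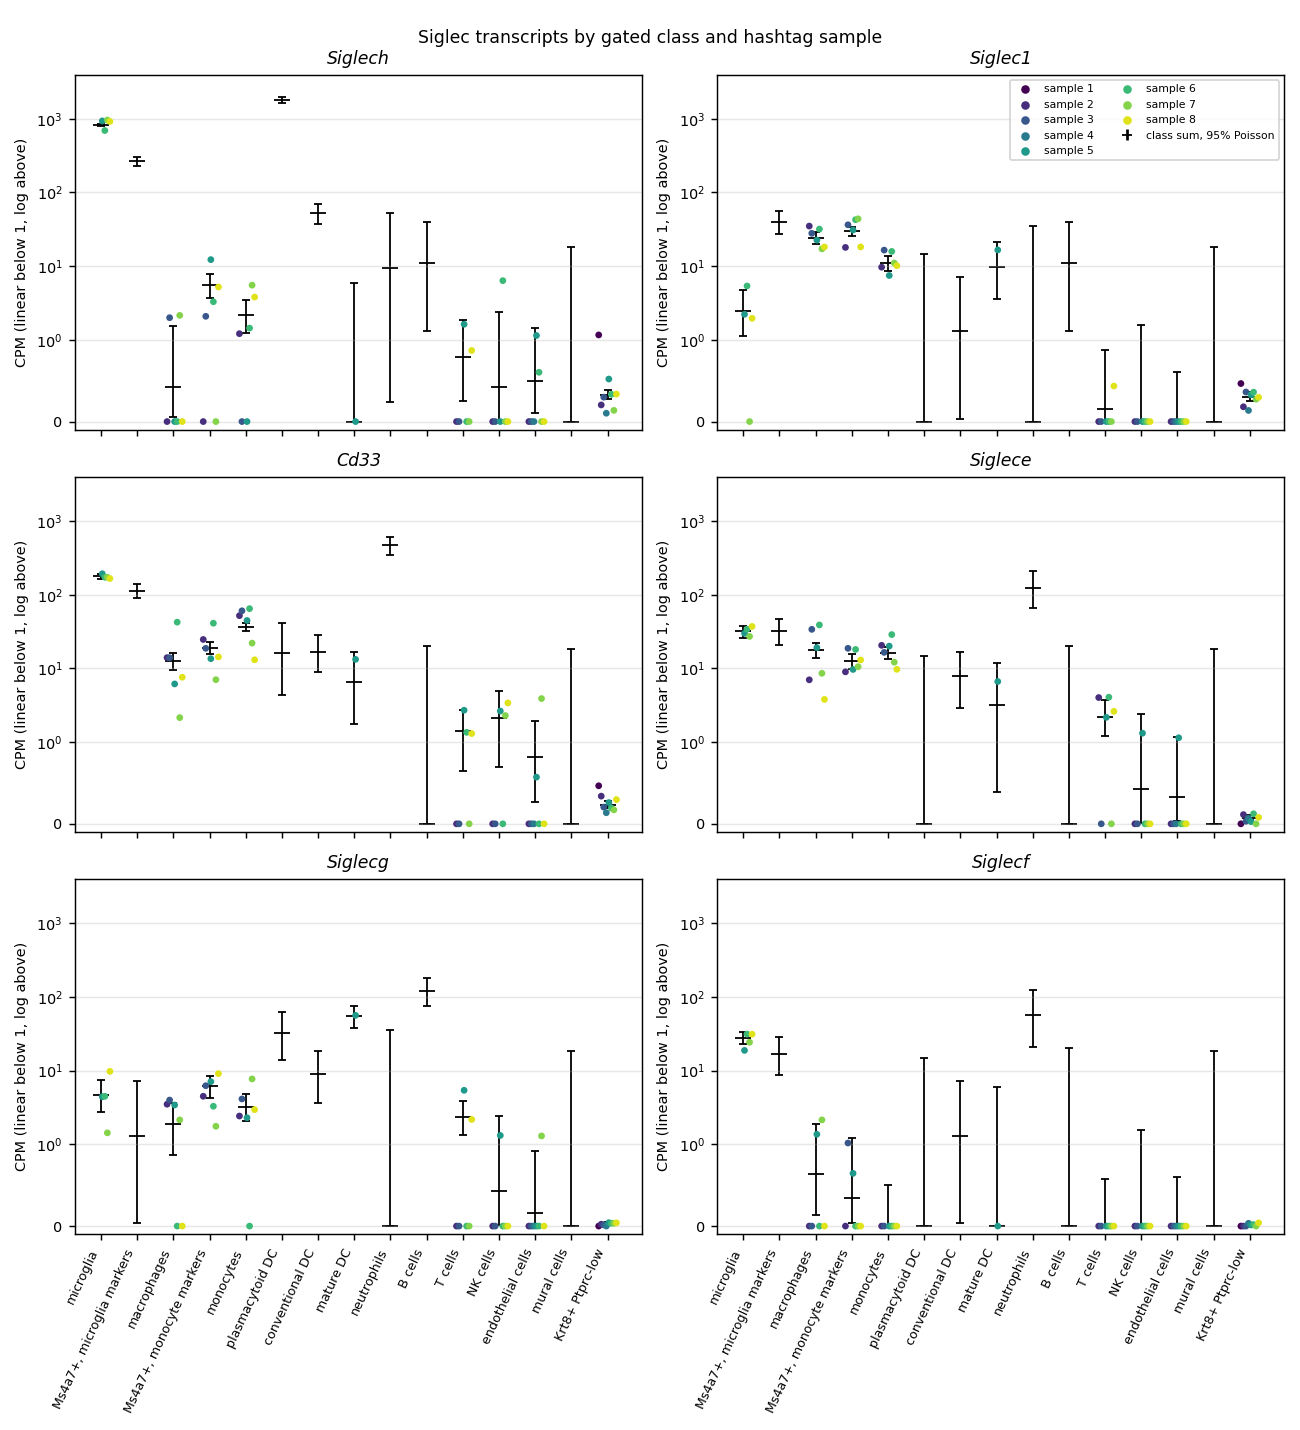
Transcript level of the 6 Siglec genes in 15 gated classes, in CPM on an axis that is linear below 1 and logarithmic above. Points are hashtag samples with at least 20 cells of the class, and crosses are the sum over all cells of the class with its exact 95% Poisson interval. Siglech stands at 1807 CPM in plasmacytoid dendritic cells and 834 CPM in microglia, Siglecf at 27.8 CPM in microglia, and Siglec1 between 11 and 39.7 CPM in monocytes and the Ms4a7+ classes.

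Plasmacytoid dendritic cells had 2.17 times the Siglech level of microglia (95% interval 1.96 to 2.39 from the summed UMIs). In sample 5, which held 18 of the 34 plasmacytoid dendritic cells, the level was 1605 CPM in these cells and 938 CPM in microglia, a ratio of 1.71 (1.47 to 1.99). In the other samples with such cells, their level was 1707 CPM in 7 cells of sample 8 and 1928 to 2519 CPM in the 1 to 4 cells of samples 2, 3, 4, 6 and 7. All of these values exceeded the microglial levels of 694 to 965 CPM in samples with at least 20 microglia. Only sample 5 had the 10 or more plasmacytoid dendritic cells set as the minimum for the edgeR test, which was not made. Over all 7 samples with at least 1 such cell the level was higher than in microglia of the same sample in 7 of 7, with a mean log2 ratio of 1.38 ± 0.44 (SD, n = 7, two-sided exact sign-flip permutation p = 0.0156, the smallest possible). This test was added after the values were seen, and 3 of the samples held 1 plasmacytoid dendritic cell each. Without sample 5 the ratio was 2.55, and without sample 6 it was 1.92.

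Of the 5 members tested, 4 differed between microglia and macrophages. By edgeR's quasi-likelihood test (Benjamini-Hochberg adjusted p under 0.05), 53.1% of all 7214 genes tested passed in this comparison, 27.0% higher and 26.1% lower in microglia. Siglech, Cd33 and Siglecf were higher in microglia, Siglec1 was lower, and Siglece did not pass. Siglecg was too rare to be tested. Between microglia and monocytes, 3 of 4 members tested were higher in microglia (Siglech, Cd33 and Siglecf). There, 60.0% of 7241 genes passed, 30.4% higher and 29.5% lower in microglia. Siglec1, lower in microglia in 4 of 4 samples, was too rare there to be tested, as was Siglecg. In both comparisons with microglia, Siglech and Siglecf passed the filter on low counts only through microglia. The number of members called higher therefore depends in part on the filter. Between macrophages and monocytes, 2 of 3 members tested passed, against 44.0% of 6233 genes, with Siglec1 higher (22.1% of genes were) and Cd33 lower (21.9%). The 3 comparisons share classes, so their calls are not independent of each other. The gate thresholds were set with Siglec values in view, and the p-values of the members do not account for this.

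Siglech, whose protein pairs with DAP12, had 938, 694, 965 and 922 CPM in microglia of samples 5, 6, 7 and 8, against 0, 0, 2.14 and 0 CPM in macrophages and 0, 1.44, 5.51 and 3.8 CPM in monocytes of these samples. The groups were far apart in every sample, and sample 6 had the lowest microglial level. The summed counts were 2768 UMIs in microglia and 1 UMI in macrophages, a ratio of 3269 (95% interval 586 to 129175), with an adjusted p of 6.15e-12 in the edgeR fit. Against monocytes, the counts of 2768 and 15 UMIs gave a ratio of 327 (198 to 584) and an adjusted p of 8.30e-11 in edgeR. The limit on microglia markers in the macrophage gate bears on the size of the first difference. With these markers allowed up to the microglia gate, the edgeR log2 fold change of Siglech was 6.82 ± 0.21 (SE) for microglia over macrophages and 7.26 ± 0.40 for microglia over monocytes. The 105 Ms4a7+ cells held out by this limit had 20.5 CPM of Siglech, with 44.3 CPM of Cd33 and 34.1 CPM of Siglec1.

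Cd33, a myeloid receptor whose human counterpart carries inhibitory tail motifs, was higher in microglia than in macrophages and monocytes. Its level was 193, 173, 173 and 166 CPM in microglia of samples 5 to 8, against 6.15, 42.4, 2.14 and 7.58 CPM in macrophages and 44.8, 64.8, 22.0 and 13.1 CPM in monocytes. Microglia varied little and lay above all other values, and macrophages of sample 6 stood above those of the other samples. The log2 fold change was 3.77 ± 0.35 (SE, adjusted p = 2.25e-07, edgeR) over macrophages and 2.10 ± 0.26 (adjusted p = 5.49e-06, edgeR) over monocytes. Without sample 6 the first was 4.78. In that sample, summed macrophage markers in macrophages were 19008 CPM, against 10344 to 16254 CPM in the other 5 samples, and summed microglia markers were 553 CPM against 551 to 1040 CPM. The part of these markers in the Cd33 level was not tested.

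Macrophages had less Cd33 than monocytes. In samples 2 and 3, which had too few microglia for a sum, Cd33 was at 14 and 14 CPM in macrophages, against 52.0 and 60.5 CPM in monocytes. The macrophage value was the lower one in all 6 samples, although the ranges of the classes overlapped across samples. The log2 fold change of macrophages over monocytes was -1.80 ± 0.30 (SE, adjusted p = 0.000215, edgeR), from means of 14.4 ± 14.5 and 42.9 ± 21.0 CPM (SD, n = 6 each). With microglia markers allowed up to the microglia gate it was -1.03 ± 0.22. Over all classes, neutrophils had 467 CPM of Cd33 (345 to 617), but this rests on 49 UMIs in 25 of 38 cells with a median of 2489 UMIs. The neutrophil value was 325 to 817 CPM in the 4 samples with 5 or more of these cells, and no test was made.

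Siglece, an inhibitory receptor that recruits the phosphatases SHP-1 and SHP-2, was spread over the myeloid classes. It had 29.9, 34.0, 27.2 and 37.1 CPM in microglia of samples 5 to 8, against 19.1, 38.9, 8.58 and 3.79 CPM in macrophages and 20.1, 28.8, 12.1 and 9.71 CPM in monocytes. Microglia exceeded macrophages in 3 of 4 samples and monocytes in 4 of 4, and the ranges overlapped. The log2 fold changes of 0.85 ± 0.38 (SE, adjusted p = 0.0682, edgeR) over macrophages and 0.57 ± 0.28 (adjusted p = 0.0896, edgeR) over monocytes did not pass. Without sample 6, where macrophages had the higher level, the value over macrophages was 1.42 with an adjusted p of 0.00541 in edgeR. Macrophages over monocytes gave -0.22 ± 0.29 (adjusted p = 0.564, edgeR), with 7.0 and 33.9 CPM in macrophages and 20.6 and 16.5 CPM in monocytes of samples 2 and 3. Neutrophils had 124 CPM (66.0 to 212) from 13 UMIs, and no Siglece UMI was counted in the plasmacytoid dendritic cells or the B cells, where a count of 0 allows up to 12 and 16.4 CPM (3 counts).

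Siglecf transcripts were present in microglia and nearly absent from macrophages and monocytes. Microglia of samples 5 to 8 had 18.8, 31.4, 24.3 and 31.3 CPM, against 1.37, 0, 2.14 and 0 CPM in macrophages and 0 CPM in monocytes of all 4 samples. The groups did not overlap, and every microglial sum exceeded every other. The 85 UMIs in microglia and 3 UMIs in macrophages gave a ratio of 33.5 (95% interval 11.1 to 165) with an adjusted p of 3.21e-06 in edgeR. The fitted log2 fold change was 4.70 ± 0.56 (SE), 5.59 without sample 5 and 4.03 without sample 8. Against monocytes, which had no UMI, Siglecf was at least 50.1-fold higher in microglia with a floor of 3 counts over the group, at an adjusted p of 1.63e-06 in edgeR. In singlets of all samples, 78 of 365 microglia held 101 Siglecf UMIs (27.8 CPM, 22.7 to 33.8), and T cells, NK cells and endothelial cells held none, which allows up to 0.472, 1.29 and 0.491 CPM. Plasmacytoid dendritic cells, the class with the most Siglech, also held no Siglecf UMI, which allows up to 12 CPM. Neutrophils held 6 UMIs in 5 of 38 cells (57.2 CPM, 21.0 to 124), of which 5 were in sample 5, and without that sample the level was 15.9 CPM from 1 UMI.

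Siglecg, the B cell inhibitory member, was highest in B cells, at 120 CPM (75.4 to 182) from 22 UMIs in 14 of 30 cells. Mature dendritic cells had 54.9 CPM (38.0 to 76.7) from 34 UMIs in 20 of 66 cells, and plasmacytoid dendritic cells 32.1 CPM (13.9 to 63.3) from 8 UMIs. The intervals of neighbours in this order overlapped. Without sample 8 the B cell level was 202 CPM, from 12 UMIs in 18 cells. Every other class had at most 9.07 CPM. In microglia of samples 5 to 8 it was 4.43, 4.48, 1.43 and 9.77 CPM, against 3.42, 0, 2.14 and 0 CPM in macrophages and 2.3, 0, 7.72 and 2.95 CPM in monocytes. These ranges overlapped, and the gene did not pass the filter on low counts in any of the 3 comparisons. Cd22, the other Siglec typical of B cells, had 71.1 CPM in B cells from 13 UMIs. Siglec15 was counted only in the cells with Krt8 and little Ptprc, at 0.144 CPM from 59 UMIs.

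Siglec1, the macrophage adhesion receptor, was highest in the Ms4a7+ classes. Over all cells it was at 39.7 CPM in Ms4a7+ cells with microglia markers, 29.7 CPM in Ms4a7+ cells with monocyte markers, 24.0 CPM (19.8 to 28.9) in macrophages, 11 CPM (8.71 to 13.6) in monocytes and 2.48 CPM (1.14 to 4.71) in microglia, the last of which was 1.19 CPM without sample 6. By sample, macrophages and Ms4a7+ cells with monocyte markers overlapped (17.2 to 35.0 CPM and 17.9 to 43.9 CPM, 6 samples each). Macrophages of samples 5, 6, 7 and 8 had 22.5, 31.8, 17.2 and 18.2 CPM, against 7.46, 15.8, 11 and 10.1 CPM in monocytes. In samples 2 and 3 the values were 35.0 and 27.9 CPM in macrophages, against 9.67 and 16.5 CPM in monocytes. Macrophages were higher in 6 of 6 samples and the ranges did not overlap, with a log2 fold change of 0.96 ± 0.22 (SE, adjusted p = 0.00318, edgeR).

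Microglia had little Siglec1, at 2.22, 5.38, 0 and 1.95 CPM in samples 5 to 8. All 4 values were below those of macrophages and of monocytes in the same samples. The log2 fold change of microglia over macrophages was -3.16 ± 0.43 (SE, adjusted p = 1.54e-05, edgeR), from 9 UMIs in microglia and 83 in macrophages. Against monocytes the gene did not pass the filter on low counts, and 9 and 58 UMIs gave a ratio of 0.275 (95% interval 0.120 to 0.558). The share of cells with a Siglec1 UMI was 2.19% in microglia, 26.6% in macrophages, 8.91% in monocytes and 0.107% in T cells. After thinning it was 0.28% in microglia, 10.2% in macrophages and 3.6% in monocytes, with 11, 32 and 40 shallower cells left out.

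**Figure D2:**
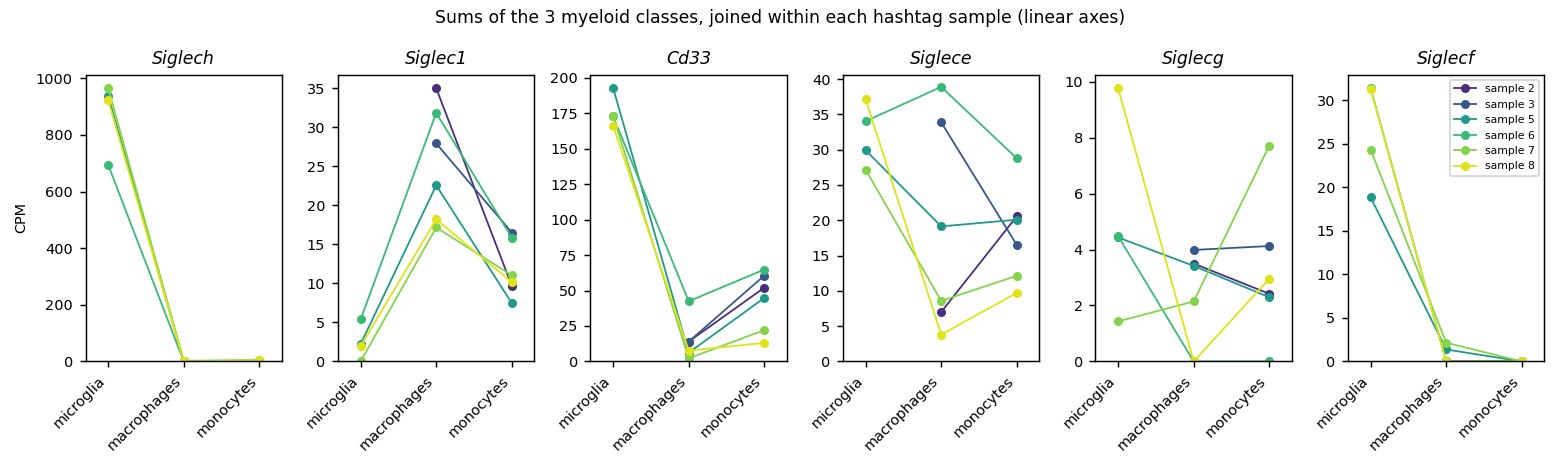
CPM of each member in sums of microglia, macrophages and monocytes, 1 line per hashtag sample with at least 20 cells of the class, on linear axes that differ between panels. Siglech, Cd33 and Siglecf are highest in microglia in all 4 samples, Siglec1 is highest in macrophages in all 6, and the Siglece and Siglecg lines cross.

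Within microglia, the members were not evenly spread. Of 365 cells, 1 had no Siglech UMI, 92 had 1 to 4 and 272 had 5 or more. Cd33 was detected in 271 cells, Siglece in 90, Siglecf in 78, Siglecg in 16 and Siglec1 in 8. Microglia were also divided by how many UMIs per 10000 came from the gate's 6 markers, at 20 and 40. Siglech was at 454 CPM in the 56 cells with the fewest gate markers, 712 CPM in the 139 cells between and 1262 CPM in the 170 cells with the most. Cd33 was at 159, 152 and 232 CPM in the same order and Siglecf at 21.9, 35.6 and 20.6 CPM. The median UMIs per cell were 11928.5, 9291 and 6500 in this order, and their part in these levels was not tested.

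Across 50 sums of class and hashtag sample from 9 classes, the genes most like each member were named by the Pearson correlation of log2(CPM + 10) among 8322 genes. These sums share 1 capture, differ in depth, and give no test. Plasmacytoid dendritic cells, the class with the most Siglech, had no sample with 20 cells and are not among them. The same holds for neutrophils and B cells, the classes with the most Cd33 and Siglecg. Siglech was nearest to Sall1 (0.985), Gpr34 (0.982), Plxdc2 (0.979), Crybb1 (0.972) and P2ry12 (0.968), of which Sall1, Gpr34 and P2ry12 are in the microglia gate. Siglecf was nearest to Siglech itself (0.979), followed by Plxdc2, Sall1, Gpr34 and Crybb1. Cd33 was nearest to Trf (0.921), Lpcat2, Il1a, Gpr84 and Hpgd, and Siglece to Csf1r (0.924), Lpcat2, Btk, Ly86 and March1. Siglec1 was nearest to Rab7b (0.951), B3gnt8, Clec12a, Clec4a1 and Cd300ld. Siglecg was nearest to Il4i1 (0.865), a gene of the mature dendritic cell gate, then Flrt3, Etv3, Syngr2 and Rogdi. Between members, the correlation was 0.886 for Cd33 with Siglece, 0.755 for Siglech with Cd33, and -0.08 for Siglech with Siglec1.

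Of 7 signalling partners tested in microglia against macrophages, 2 were higher, 1 was lower, and the median log2 fold change was -0.01, against 0.01 over all genes, of which 27.0% were higher and 26.1% lower. Inpp5d, a phosphoinositide phosphatase (log2 fold change 1.40), and Socs3, a suppressor of cytokine signalling (1.36), were higher in microglia, and Ptpn6, which encodes SHP-1, was lower (-0.73). Tyrobp had a difference of -0.12 that did not pass (adjusted p = 0.408, edgeR), at means of 2536 CPM in microglia and 2589 CPM in macrophages. Against monocytes, 1 of the 7 was higher in microglia and 4 were lower, with a median of -0.82, where 30.4% of all genes were higher and 29.5% lower (median 0.05). Inpp5d was the higher one (1.15), and Hcst (-1.20), Syk (-1.09), Tyrobp (-0.90) and Ptpn6 (-0.82) were lower. In macrophages over monocytes 4 of 7 were lower and none higher, where 21.9% of all genes were lower and 22.1% higher (median 0.04), namely Syk (-0.84), Socs3 (-0.79), the adaptor gene Hcst (-0.74) and Tyrobp (-0.66).

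The sialyltransferases, which build Siglec ligands, differed gene by gene. Of 10 genes of sialic acid synthesis and transfer tested out of 23, 4 were higher and 3 lower in microglia than in macrophages, and 5 were higher and 3 lower in microglia than in monocytes (medians 0.15 and 0.28). Of all genes, 53.1% passed in either direction in the first comparison and 60.0% in the second. St3gal6 was higher in microglia, with log2 fold changes of 3.70 over macrophages and 3.92 over monocytes. St3gal1 (-2.11 and -3.50) and St3gal4 (-2.04 and -3.12) were lower in the same comparisons. In macrophages over monocytes 2 of 7 tested were lower, St3gal1 (-1.13) and St3gal4 (-1.12), and none was higher, where 21.9% of all genes were lower and 22.1% higher. Of 2 genes of sialic acid removal and modification, Casd1, which acetylates sialic acid, was higher in microglia (1.22 and 1.56), and the sialidase gene Neu1 was lower in microglia than in monocytes (-0.64).

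A list of candidate protein ligands of Siglecs was also examined, whose binding to Siglecs was not tested. Of its 5 genes tested, 2 were higher and 3 lower in microglia, both over macrophages and over monocytes (medians -1.21 and -1.84). Of all genes, 53.1% and 60.0% passed in either direction. Selplg, the selectin ligand PSGL-1, had log2 fold changes of 2.99 and 2.70, and Trem2, a lipid-sensing receptor that also signals through DAP12, 1.95 and 3.99. Spn, which encodes CD43, was lower (-2.08 and -2.69). In macrophages over monocytes 1 of 6 was higher, Trem2 (2.25), and 2 were lower, Cd52 (-0.66) and Cd47 (-0.43). Of all genes in that comparison, 22.1% were higher and 21.9% lower.

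Siglec1 is an interferon-induced gene, and it was set beside 12 others. Of these, 11 were lower and 1 was higher in macrophages than in monocytes (median log2 fold change -0.94), while Siglec1 was higher. Of all genes, 21.9% were lower and 22.1% higher in this comparison. Cxcl10 (-1.84), Rsad2 (-1.36) and Mx1 (-1.33) were lower, and Bst2 was higher (0.41). In microglia 11 of the 12 were lower than in macrophages (median -1.27) and 11 than in monocytes (median -2.47), with none higher in either, against 26.1% and 29.5% of all genes that were lower. Over 6 samples, no relation of the Siglec1 level to the summed level of the 12 genes was detectable within a class. Pearson's r was -0.19 in macrophages (exact permutation p = 0.786, two-sided) and Spearman's rho -0.26 (exact permutation p = 0.658). In monocytes r was 0.08 (p = 0.861) and rho 0.09 (p = 0.919), both by exact permutation. In macrophages together with Ms4a7+ cells with monocyte markers r was 0.09 (p = 0.894) and rho -0.09 (p = 0.919), both by exact permutation. Over the 3 relations, adjusted values were 0.894 for each r and 0.919 for each rho. Without the 2 samples farthest from the median, r was -0.17 in macrophages, -0.54 in monocytes and -0.41 in the joined class.

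The Siglec-H antibody gave a low and broadly spread count. The mean was 9.32 tags per cell in plasmacytoid dendritic cells, 4.05 in microglia, 5.80 in macrophages and 3.95 in monocytes, against 2.90 in T cells, 2.55 in NK cells and 4.85 in the cells with Krt8 and little Ptprc, classes with little or no Siglech transcript. At least 10 tags were found on 41.2% of plasmacytoid dendritic cells (95% Clopper-Pearson interval 24.6 to 59.3%), 4.93% of microglia (2.95 to 7.68%), 17.5% of macrophages (13.3 to 22.4%) and 1.18% of T cells (0.589 to 2.10%). Ms4a7+ cells with microglia markers had 12.2 tags per cell at a median of 24346 UMIs. Of the 112 barcodes with 16 or more Siglec-H tags, 6 were plasmacytoid dendritic cells and 3 microglia. Another 38 had passed several gates or been barred from a class by other markers.

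Whether microglia carried more Siglec-H tag than macrophages depended on the scale. By share of all antibody tags, microglia of samples 5 to 8 had 0.521, 0.442, 0.446 and 0.526%, against 0.149, 0.177, 0.0916 and 0.0994% in macrophages and 0.151, 0.132, 0.10 and 0.0988% in monocytes. By mean tags per cell the values were 4.10, 4.94, 3.51 and 3.44 in microglia, against 7.64, 7.82, 4.32 and 4.72 in macrophages and 5.12, 4.17, 3.88 and 3.37 in monocytes. The share was higher in microglia in 4 of 4 samples with no overlap, and the mean count was lower than in macrophages in 4 of 4. The log2 ratio of microglia over macrophages was 1.95 ± 0.49 by share (SD, n = 4, exact sign-flip permutation p = 0.125, the smallest possible, adjusted p = 0.162) and -0.58 ± 0.26 by mean count (adjusted p = 0.146 by the same permutation test). Changing the scale moved the median of the 35 antibodies as well, which was 1.14 by share and -1.40 by mean count. Siglec-H was 0.82 above that median, a distance that the change between share and mean count cannot alter, and it ranked 5 of 35 antibodies. On centred log ratios the Siglec-H value was 0.92 ± 0.09 (SD, n = 4), which was 0.43 above the median antibody and ranked 8 of 35. Antibodies to CCR2 (1.97), a monocyte receptor, Ly6C (1.97), a monocyte antigen, and CD90.1 (1.97), an allelic form of a T cell antigen, had nearly the same log2 ratio of shares in microglia over macrophages, and Ly6G, a neutrophil antigen, had 1.86.

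Over monocytes, the log2 ratio of the Siglec-H share in microglia was 2.03 ± 0.32 (SD, n = 4, exact sign-flip permutation p = 0.125, adjusted p = 0.151), and by mean count it was -0.05 ± 0.24 (adjusted p = 0.750 by the same permutation test). The difference from the median antibody was 0.59 by share and by mean count. On centred log ratios the Siglec-H value was 0.78, which was 0.34 above the median antibody. With 4 samples no antibody could pass, and 0.00% of the 35 did so in either comparison, also at an unadjusted p under 0.05.

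By mean tags per cell, the CD169 tag was highest on the Ms4a7+ classes, which also had the most Siglec1 transcript. The mean was 24.7 tags per cell in Ms4a7+ cells with microglia markers, 10.9 in Ms4a7+ cells with monocyte markers, 9.27 in macrophages, 3.50 in monocytes and 1.72 in microglia, against 1.47 in T cells, 1.07 in NK cells, 1.29 in endothelial cells and 1.42 in the cells with Krt8 and little Ptprc. As a share of all tags the order was another, with 0.431% in Ms4a7+ cells with microglia markers, 0.175% in Ms4a7+ cells with monocyte markers, 0.201% in macrophages, 0.106% in monocytes and 0.202% in microglia, against 0.0691% in T cells. These values pool samples of unequal level. Sample 6 gave 14 of the 33 Ms4a7+ cells with microglia markers, at 41.2 tags per cell. The other samples had at most 5 such cells each, at 2.75 (sample 8) to 24 (sample 2). Sample 6 also gave 93 of the 365 microglia, with a share of 0.307%. At least 10 tags were found on 32.2% of macrophages (95% Clopper-Pearson interval 26.8 to 37.9%), 6.51% of monocytes (4.80 to 8.58%), 1.10% of microglia (0.299 to 2.78%) and 0.535% of T cells (0.174 to 1.24%). Of the 105 barcodes with 26 or more CD169 tags, 23 were Ms4a7+ cells with monocyte markers and 20 macrophages. Ms4a7+ cells with microglia markers gave 11 and microglia 2. Another 41 had passed several gates or been barred from a class by other markers.

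**Figure D3:**
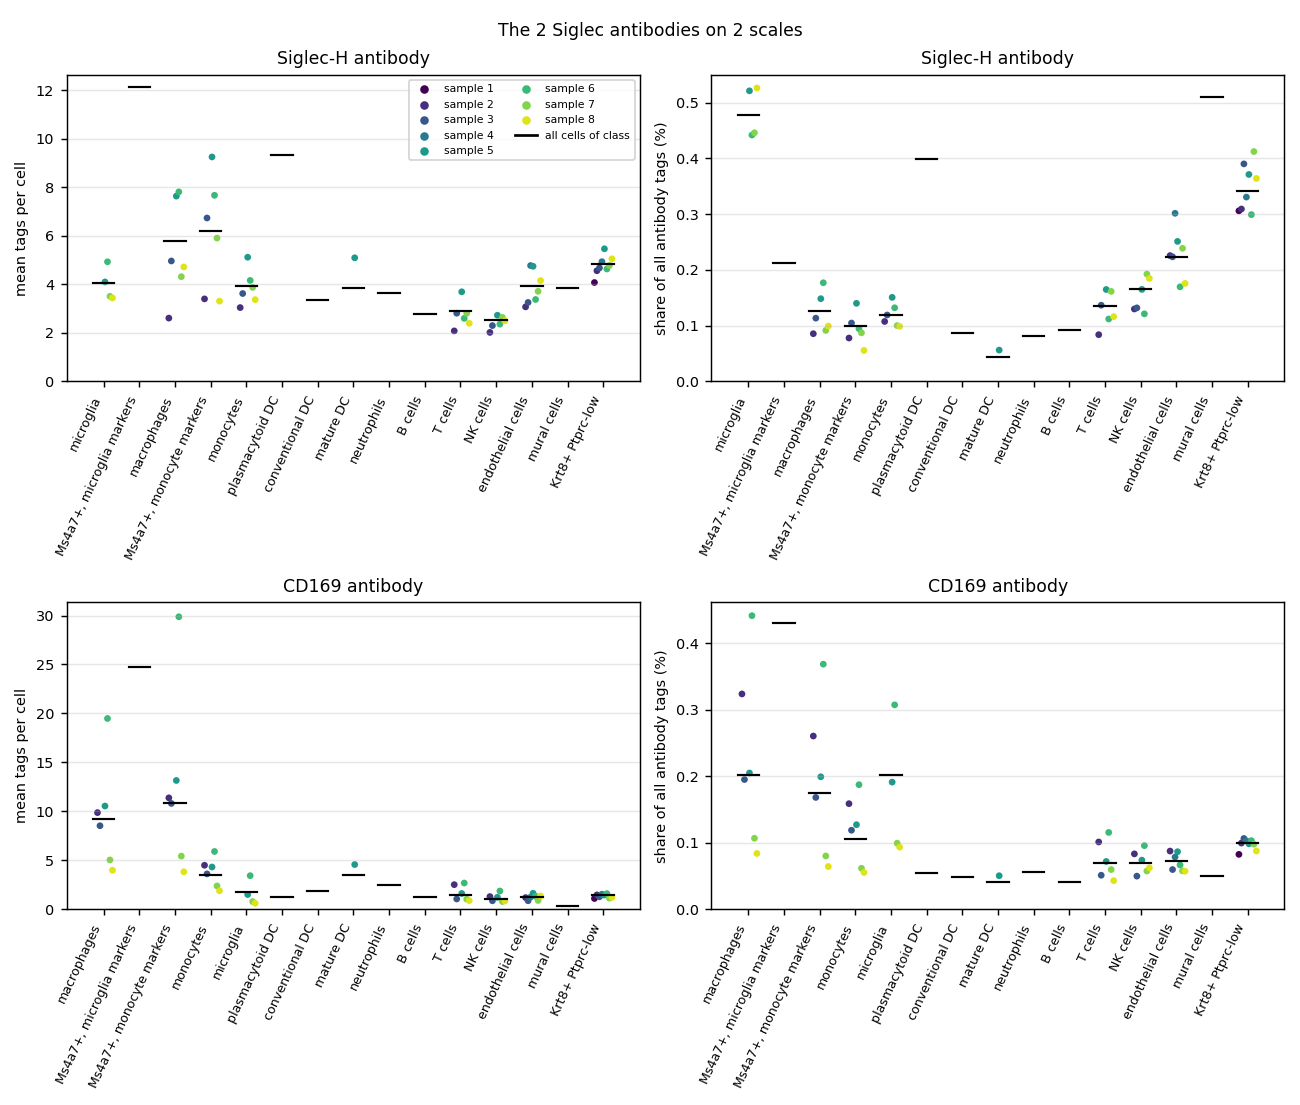
Tags of the Siglec-H antibody (top) and the CD169 antibody (bottom) by gated class, as mean tags per cell (left) and as share of all antibody tags in percent (right), on linear axes from 0. Points are hashtag samples with at least 20 cells of the class and bars are all cells of the class. Microglia are above macrophages for Siglec-H by share (0.477 and 0.126%) and below them by mean count (4.05 and 5.80), while CD169 is higher in macrophages than in monocytes on both scales.

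In samples 5, 6, 7, 8, 2 and 3, CD169 had 10.5, 19.5, 5.04, 3.98, 9.87 and 8.53 tags per cell in macrophages, against 4.32, 5.90, 2.39, 1.89, 4.49 and 3.61 in monocytes. As a share of all tags this was 0.205, 0.441, 0.107, 0.0839, 0.324 and 0.195% in macrophages, against 0.127, 0.187, 0.0616, 0.0553, 0.159 and 0.119% in monocytes. Macrophages were higher in each of the 6 samples, while the ranges over samples overlapped, and in both classes sample 6 was highest and sample 8 lowest. The log2 ratio of the share was 0.84 ± 0.24 (SD, n = 6, exact sign-flip permutation p = 0.0312, the smallest possible), with an adjusted p of 0.0643 that did not pass. By mean count it was 1.26 (adjusted p = 0.0547 by the same permutation test), and it was 0.75 above the median antibody. CD169 ranked 12 of 35, 17 antibodies had an unadjusted p under 0.05, and none passed after adjustment (0.00%). The antibodies to CD335, CXCR4 and KLRG1 are counted in the 17 and ranked above CD169. Each had the same log2 ratio, 0.90 ± 0.42 (SD), the pattern of antibodies without tags, where only the added 0.5 tags enter. On centred log ratios the CD169 value was 0.48 with an adjusted p of 0.0456 by the exact permutation test, on a scale where 68.6% of the 35 antibodies passed.

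The comparison of CD169 between macrophages and microglia also depended on the scale. Macrophages of samples 5 to 8 had 10.5, 19.5, 5.04 and 3.98 CD169 tags per cell, against 1.51, 3.43, 0.782 and 0.611 in microglia. As a share of tags these were 0.205, 0.441, 0.107 and 0.0839% in macrophages and 0.191, 0.307, 0.0993 and 0.0934% in microglia. Macrophages were higher in 4 of 4 samples by mean count and in 3 of 4 by share. The log2 ratio of macrophages over microglia was 0.14 ± 0.29 by share (SD, n = 4, exact sign-flip permutation p = 0.50, adjusted p = 0.530) and 2.67 by mean count (exact permutation p = 0.125, the smallest possible). CD169 was 1.27 above the median antibody by share and by mean count and 0.93 above it on centred log ratios, and no antibody passed (0.00%).

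The CD169 level also varied between hashtag samples in T cells, a class with 1 Siglec1 UMI. T cells of samples 2, 3, 5, 6, 7 and 8 had 2.51, 1.05, 1.61, 2.68, 1.04 and 0.887 tags per cell, and Ms4a7+ cells with monocyte markers of the same samples had 11.4, 10.8, 13.2, 29.9, 5.43 and 3.83. Sample 6 was highest and sample 8 lowest in both classes, as in macrophages. Siglec1 transcript in macrophages was 31.8 CPM in sample 6 and 18.2 CPM in sample 8. The part of the level seen in T cells in the differences between samples was not tested.

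The transcript and tag of a gene were then compared cell by cell. Plasmacytoid dendritic cells with 5 or more Siglech UMIs had 10.2 Siglec-H tags (30 cells), against 2.75 in the 4 cells with 1 to 4 UMIs. Microglia with 5 or more had 4.24 tags (272 cells), against 3.52 in the 92 cells with 1 to 4, and at median depths of 7919 and 6759.5 UMIs. By share of all tags the order was the opposite, at 0.469% with 5 or more and 0.514% with 1 to 4. After thinning, only sample 6 had at least 10 microglia on each side. There, 79 microglia with a Siglech UMI had 4.70 tags (median 7940 UMIs), against 6.31 tags in 13 without (median 22923 UMIs), a log2 ratio of shares of -0.40 with no test.

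Macrophages with a Siglec1 UMI had 14.6 CD169 tags per cell (76 cells), against 7.33 in the 210 without, and monocytes had 7.06 (63 cells) against 3.16 (644 cells). Cells with a UMI were also deeper, with medians of 14681 and 11470.5 UMIs in macrophages. Unthinned, the log2 ratio of the tag share was 0.58 ± 0.16 in macrophages (SD, n = 3, higher in 3 of 3 samples, exact sign-flip permutation p = 0.250, the smallest possible). Thinned to 4000 UMIs, no sample had 10 macrophages on each side. With Ms4a7+ cells with monocyte markers added, the unthinned ratio was 0.34 ± 0.27 (n = 6, higher in 5 of 6, exact sign-flip permutation p = 0.0625), and the thinned ratio -0.03 ± 0.33 (n = 4, higher in 1 of 4, exact sign-flip permutation p = 1.00).

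**Figure D4:**
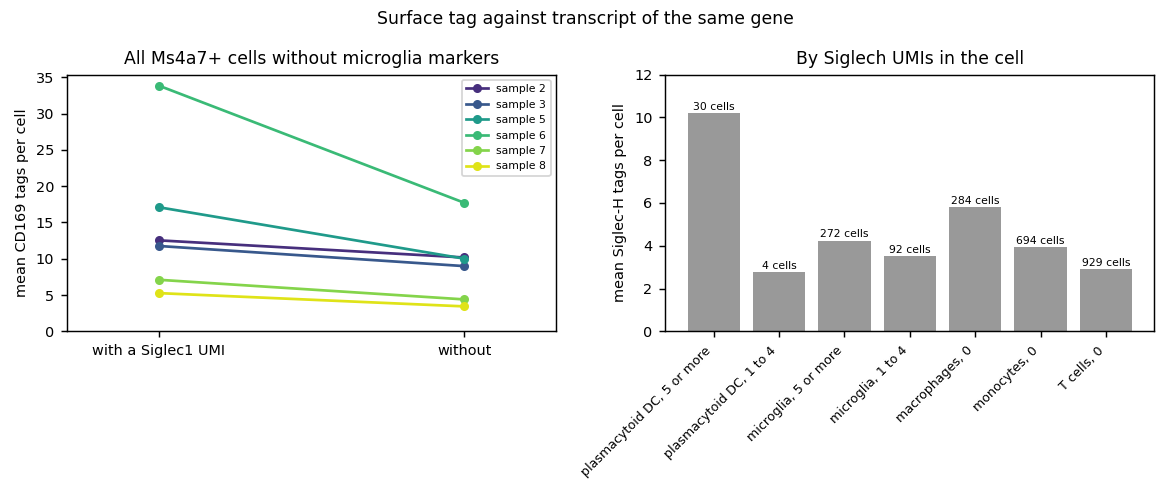
Left, mean CD169 tags per cell in macrophages and Ms4a7+ cells with monocyte markers together, with and without a Siglec1 UMI, 1 line per hashtag sample and without thinning. Right, mean Siglec-H tags per cell by the number of Siglech UMIs in the cell, over all samples. Sample 6 has 33.9 tags with and 17.7 without a Siglec1 UMI, and plasmacytoid dendritic cells with 5 or more Siglech UMIs have 10.2 Siglec-H tags against 5.79 in macrophages with none.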

How the data were processed

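The authors deposited raw UMI counts per barcode for genes, antibodies and hashtags, and the submitters' processing notes name Cell Ranger 3.1, mm10 and Seurat 3.1.1. The annotation used is not given. Barcodes under 500 genes or over 15% mitochondrial UMIs were removed, and hashtags were called with HTODemux (Seurat 5.3.0, quantile 0.99). Hashtag doublets and negatives were left out, doublets within a hashtag cannot be seen, and free RNA was not measured because the table holds called barcodes only. Singlets were gated by marker UMIs per 10000, without Siglec genes. The members, lists and gates were chosen with earlier results of these data known, and the gate thresholds were set with Siglec values in view.

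Counts were summed per class and hashtag sample with at least 20 cells and compared with edgeR 4.0.16 (R 4.3.3; quasi-likelihood test, TMM, filterByExpr, Benjamini-Hochberg adjustment at 0.05, hashtag sample as a block). The samples are paired by suspension, since each gave both classes compared, and deviations from class means correlated at -0.01 to 0.25 within them. The SE given with an edgeR log2 fold change was derived from the test, as the absolute log2 fold change divided by the square root of its F statistic. DESeq2 1.42.0 was an alternative. Tags were compared as shares of all tags, with 0.5 tags added to each sum, by exact two-sided sign-flip permutation over samples, adjusted over 35 antibodies. The antibodies to CD335, CXCR4 and KLRG1 had identical ratios in every comparison, as sums without tags give. They stayed in the ranks, the medians and the adjustment. Cells were thinned to 4000 UMIs before calls of a UMI. Plasmacytoid dendritic cells had a lower minimum of 10 cells for edgeR, which only sample 5 (18 cells) met, so a ratio of counts replaced that comparison. All 6 members are named; of each list the 3 called genes with the largest change, with Tyrobp, Ptpn6, Cd22 and Siglec15 always; and for each member the 5 most like genes. The gene and sign-flip tests were tested on simulated data. Ranges are exact 95% intervals. Other settings tried were no filter on low counts, no block, doubled gates, a margin rule for hashtags (80% of counts and at least 20), limits of 30000 UMIs and 20000 tags, and each sample left out. Reads of near-identical Siglec genes may be split by the counting.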

Additional observations from a re-analysis of the deposited data

Results flagged for a closer look

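Among 52 groups of 4 to 8 hashtag samples in which a member or tag was summed, 4 held a sample far from the others by Dixon's criterion, and chance alone gives about 1 in 20. Siglech in microglia was 694 CPM in sample 6, against 922 to 965 CPM in samples 5, 7 and 8. In the same sample, summed microglia markers in microglia were 12886 CPM, against 15973 to 16595 CPM in the other 3. Cd33 in macrophages was 42.4 CPM in sample 6, against 2.14 to 14 CPM in the other 5 samples. The CD169 tag on Ms4a7+ cells with monocyte markers was 29.9 per cell in sample 6, against 3.83 to 13.2 in the other 5. Siglech in the cells with Krt8 and little Ptprc was 1.16 CPM in sample 1, against 0.102 to 0.520 CPM in the other 7 samples.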

How the results depend on the processing

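Siglech, Siglec1, Cd33 and Siglecf kept their direction and their call in all alternatives run for the comparisons where they were tested. Siglece, which did not pass in the main comparisons, passed in microglia over macrophages under 5 of 12 alternatives (log2 fold changes 0.81 to 1.42), in microglia over monocytes under 1 of 11 (doubled gates, 0.73) and in macrophages over monocytes under 1 of 14 (the hashtag margin rule, -0.69), where it was also 0.20 without barcodes over 30000 UMIs. With no replicate block, 4, 3 and 2 members passed in microglia over macrophages, microglia over monocytes and macrophages over monocytes, as with the block, and no call of a member changed. By mean tags per cell the Siglec-H ratio reversed to -0.579 over macrophages and -0.0465 over monocytes, and to -0.576 and -0.0406 when barcodes over 20000 tags were also left out, a setting chosen after seeing the data. The macrophage gate alternatives were also chosen after seeing the data. The CD169 ratio of macrophages over monocytes passed on centred log ratios (0.48). The Siglech ratio of plasmacytoid dendritic cells over microglia was 1.93 with doubled gates, 1.92 to 2.55 with 1 sample left out and 2.61 when paired by sample as a replicate block, a setting added after seeing the data. Leaving out 1 sample gave 4 to 5, 3 and 2 called members in the 3 transcript comparisons. It gave Siglec-H share ratios of 1.80 to 2.17 over macrophages and 1.90 to 2.12 over monocytes. The CD169 share ratios were 0.77 to 0.89 over monocytes and 0.01 to 0.24 over microglia. Siglec1 with against without a UMI in thinned macrophages, also by mean tags or with 1 sample left out, was not run for lack of cells, nor was Siglech without thinning. Depth limits Siglecg and Siglec15, which were too rare to test, and neutrophils, whose values rest on at most 49 UMIs.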
